A study of Mus musculus with 12 samples.

Results

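The nuclear genes of the mitochondrial respiratory chain and the ATP synthase were followed in mouse bone-marrow-derived macrophages given tunicamycin, LPS or both. Members were chosen by symbol and level, with earlier results of these data known. They were names that begin with Nduf, Uqcr, Cox4, Cox5, Cox6, Cox7, Cox8 or Atp5, together with Sdha, Sdhb, Sdhc, Sdhd, Cyc1 and Cycs, kept where 3 or more of 12 libraries reached an FPKM of 1. FPKM is a fragment number scaled by transcript length and by the fragments of the library. Of 94 rows with such a name, 88 met the FPKM minimum, out of 24346 genes in the table and 10311 genes that met the same minimum and were tested. The 6 rows left out were Cox4i2, Cox6b2, Ndufa4l2, Cox7b2, Cox8b and Cox8c, of which the last 3 are listed at 0 in every library and the highest value was 0.848 FPKM, for Cox6b2. By complex the members were 36 subunits of complex I, 7 complex I assembly factors (the Ndufaf genes), 4 subunits of complex II, 10 genes of complex III with cytochrome c, 14 of complex IV and 15 of the ATP synthase. Atp5s and Atp5sl, 2 genes with a matching name whose products are no subunits, were kept as a class of their own. The chain genes encoded in mitochondrial DNA were not analysed here, since 0 of the table's rows hold them.

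The respiratory chain is a set of protein complexes in the inner mitochondrial membrane. Complex I takes electrons from NADH and complex II from succinate, complex III passes them to cytochrome c, and complex IV hands them to oxygen. Complexes I, III and IV pump protons, and the ATP synthase makes ATP from the returning flow. Macrophages rely on this machinery when resting, and those activated by LPS are known to shift toward glycolysis and to change how complexes I and II are used. Transcription factors such as NRF1, GABP, YY1 and ERR alpha are known regulators of the nuclear subunit genes.

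All cells came from wild-type mouse bone marrow cultured in M-CSF, which drives macrophage differentiation, over 7 days in medium with 10% serum. The 4 groups of 3 libraries were untreated cells (Control), LPS, Tm and Tm_LPS. LPS is a bacterial cell wall lipid sensed by TLR4, given at 1 ng/ml for 3 h, and tunicamycin (Tm) is a nucleoside antibiotic that stops N-linked glycosylation and thereby stresses the endoplasmic reticulum, given at 5 ug/ml for 3 h before LPS. The sources used here do not give how long the Tm cells were exposed in all, the age or sex of the mice, or whether libraries of a group came from separate animals or cultures, so p-values measure only the spread between these libraries, which may be technical.

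Summed FPKM ran from 561108 to 685010 per library, and 9507 to 9741 genes had at least 1 FPKM. Read depth is unknown. Pearson's r across genes was 0.9726 to 0.9857 within groups and 0.8887 to 0.9515 between groups. Control replicate 2 held 36.5% of the fifth principal component and Tm_LPS replicate 3 held 42.7% of the fourth, and counts were also made without both. Tm_LPS replicate 2 held 67.3% of the sixth, and without it 51 members fell in Tm against Control and 39 in Tm_LPS against LPS. All 10 macrophage markers found in the table had a mean of at least 1 FPKM. The T, NK, B and mast cell markers Cd8a, Klrb1c, Ms4a1, Cpa3 and Mcpt4 were listed at 0 throughout, and summed erythroid markers reached at most 0.573 FPKM. Other genes of these lists were above 0. Summed markers reached 1.86 FPKM for T and NK cells, 0.509 FPKM for B and plasma cells and 0.586 FPKM for mast cells. Cd4, of the T and NK list, measured 0.18 to 1.45 FPKM.

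The members are abundant, short transcripts. Their median of mean levels was 173.7 FPKM, against 10.97 FPKM for all tested genes, and 61 of 88 averaged at least 100 FPKM. Atp5b, the catalytic beta subunit of the ATP synthase, had the highest mean at 908.6 FPKM, and Ndufaf5, an assembly factor, the lowest at 2.46 FPKM. The median transcript length was 772.5 bases, against 2561.5 bases over all tested genes, and 52 members were shorter than 1000 bases.

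Promoters of members that fell, rose or did not pass a test with tunicamycin are shown first, since the members share regulators. Sequences were taken from RefSeq (GRCm38.p6), which held a window of 250 bases before to 50 bases after the start for 71 of the 88 members. Each line is a stretch ahead of the start that holds no annotated exon, 5′ to 3′ on the gene's strand, with motif matches in capitals. Uqcrh (chr4:116075072-116075231, minus strand), Cox6b1 (chr7:30626152-30626311, minus), Atp5g3 (chr2:73911327-73911486, minus) and Sdhd (chr9:50603850-50603909, minus) fell with tunicamycin. Atp5b (chr10:128083113-128083272, plus) rose, and Sdha (chr13:74350281-74350308, minus) did not pass. The stretches printed here all hold a match. Those of Atp5k, Ndufa3, Cox7a2, Cox5b, Cox7a2l and Uqcrc1, cut in the same way, hold none and are not printed. The cut leaves out matches that the counts below, made over the full window, include. Outside its stretch Atp5k matched NRF1 and CCGGAAG, and Uqcrc1 matched NRF1. The same holds for Sdhd (NRF1, ERR alpha), Atp5g3 (NRF1), Cox6b1 (CCGGAAG) and Sdha (CCAAT).
Uqcrh: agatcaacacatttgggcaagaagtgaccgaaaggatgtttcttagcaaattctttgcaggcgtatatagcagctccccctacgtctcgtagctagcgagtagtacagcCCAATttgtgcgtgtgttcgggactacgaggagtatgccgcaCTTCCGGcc
Cox6b1: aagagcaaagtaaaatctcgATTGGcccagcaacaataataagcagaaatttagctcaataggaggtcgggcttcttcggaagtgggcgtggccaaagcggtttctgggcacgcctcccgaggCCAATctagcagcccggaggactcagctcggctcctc
Atp5g3: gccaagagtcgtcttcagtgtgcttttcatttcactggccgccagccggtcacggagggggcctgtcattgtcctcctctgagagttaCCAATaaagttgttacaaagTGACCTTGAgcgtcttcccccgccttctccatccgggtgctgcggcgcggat
Sdhd: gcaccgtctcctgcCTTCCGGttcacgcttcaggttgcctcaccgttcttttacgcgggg
Atp5b: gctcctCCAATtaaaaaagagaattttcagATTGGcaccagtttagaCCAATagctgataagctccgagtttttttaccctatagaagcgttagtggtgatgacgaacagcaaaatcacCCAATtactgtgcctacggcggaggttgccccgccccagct
Sdha: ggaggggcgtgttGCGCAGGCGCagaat

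The NRF1 motif, 10 letters long with a free position, was found in 18 of 71 member promoters, or 25.4%, against 11.8% of the promoters of tested genes and 4.78% of all 27025 promoters of the table. It was found in 9 of 36 members lower in both tunicamycin comparisons and in 6 of 24 members lower in neither, the same share. Matches to CCGGAAG (ETS factors, GABP among them) stood in 22.5% of member promoters and 20.6% of tested ones, to AAGATGGCG (YY1) in 8.45% and 3.76%, and to CCAAT in 43.7% and 39.3%. The motif TCAAGGTCA (ERR alpha) was found in only 2 of 71 member promoters (Atp5g3 and Sdhd), or 2.82%. Among tested promoters it was found in 21 of 7953, or 0.264%. The ATF4 and CHOP composite motif TGATGNAA was found in 0 of 71, against 2.29% of tested promoters. All searches covered both strands, and matches of different motifs may overlap. A match describes letters, not a binding site.

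Tunicamycin-treated cells held lower levels of most chain and synthase transcripts, without and with LPS. In Tm against Control, 49 of 88 members fell and 3 rose (limma on log2(FPKM + 1), Benjamini-Hochberg adjusted p under 0.05 over all tested genes), where 16.6% of all tested genes fell and 17.9% rose. In Tm_LPS against LPS, 45 members fell and 3 rose, where 15.1% of all tested genes fell and 13.8% rose. The median member difference was -0.34 and -0.36 on the log2 scale, against 0.03 and 0.00 over all tested genes. With quantile-normalized values 33 members fell and 7 rose in Tm against Control, where 16.8% of tested genes fell and 16.9% rose. With a trend on transcript length removed 30 fell and 9 rose in each of the tunicamycin comparisons. Of tested genes 16.6% then fell and 17.4% rose in Tm, and 14.6% fell and 13.9% rose in Tm_LPS. Fold changes are computed on log2(FPKM + 1), which shrinks those of low genes.

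Libraries of the treated and untreated groups were mostly apart. All 3 Tm libraries lay below all 3 Control libraries for 60 members, where 23.0% of tested genes did so, and all Tm_LPS libraries lay below all LPS libraries for 48, where 19.6% did so. Added up over members, FPKM was 19120 ± 873 in Control, 19920 ± 1260 in LPS, 13890 ± 289 in Tm and 14860 ± 1050 in Tm_LPS (SD, n = 3). The summed level in Tm was thus 72.6% of that in Control and the level in Tm_LPS 74.6% of that in LPS. The member share of each library's summed FPKM was 3.08% ± 0.06 in Control, 2.94% ± 0.18 in LPS, 2.47% ± 0.05 in Tm and 2.33% ± 0.05 in Tm_LPS (SD, n = 3). In bulk RNA, fewer cells of a type and less RNA per cell cannot be told apart.

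Markers of other cell types moved with tunicamycin as well. Summed neutrophil markers were 86.7 to 126 FPKM in Control, 190 to 316 in LPS, 14.3 to 25.8 in Tm and 17.1 to 31.7 in Tm_LPS, with 3 of 7 in the table lower in Tm and 4 lower in Tm_LPS. Summed stromal markers were 9.1 to 11.3 FPKM in Control, 9.79 to 18.3 in LPS, 22 to 41.2 in Tm and 18.4 to 47.2 in Tm_LPS, with 4 of 7 higher in Tm and 2 higher in Tm_LPS. Summed macrophage markers ran from 14500 to 24200 FPKM over all libraries, with 1 of 10 higher and 3 lower in Tm, and 0 higher and 4 lower in Tm_LPS. The part of these cells in the member results was not tested.

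**Figure D1:**
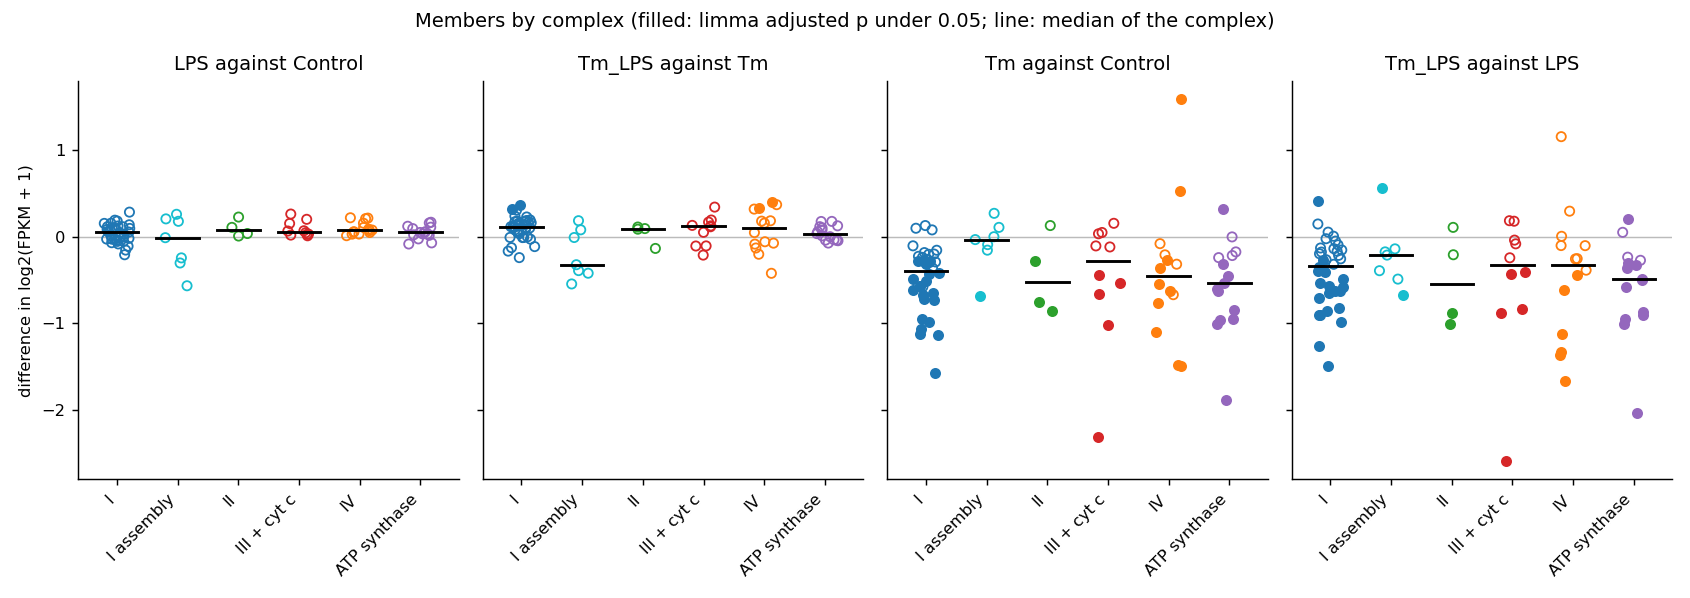
Difference in log2(FPKM + 1) of each member in 4 comparisons, by complex, with Atp5s and Atp5sl not drawn. Filled points passed limma at an adjusted p under 0.05, open points did not, and lines are medians. LPS comparisons lie mostly near 0, while 49 and 45 of 88 members passed as lower in the tunicamycin comparisons. The 45 include Atp5s.

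Most falls were shared by the comparisons without and with LPS. The tunicamycin comparisons share no library, but the spread of each gene was estimated over all 12 libraries, so their calls are not independent. As lower in both passed 40 members, which is 81.6% of the 49 and 88.9% of the 45. Of the 88 members 80 had the same sign in both, and Pearson's r of the differences across members was 0.916 (Spearman's rho 0.869), a description over genes that are not independent and that share length and promoter features. A further 9 members passed as lower only in Tm against Control and 5 only in Tm_LPS against LPS, but the test of the difference itself, the interaction, passed for 0 of 88 members in limma, where 3.37% of tested genes passed. At an unadjusted p under 0.05 it was met by 9 of 88 members and by 1524 of 10311 tested genes. Under every alternative fit it was met by 0 members at the adjusted threshold. The 95% interval of the interaction lay within a 1.5-fold difference for 63 of 88 members and reached beyond it for the rest, Uqcrh, Cox5b, Cox7b, Ndufa4 and Sdhc among them. Its smallest p was that of Atp5s (log2 difference -1.01, SE 0.33, limma adjusted p = 0.12).

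**Figure D2:**
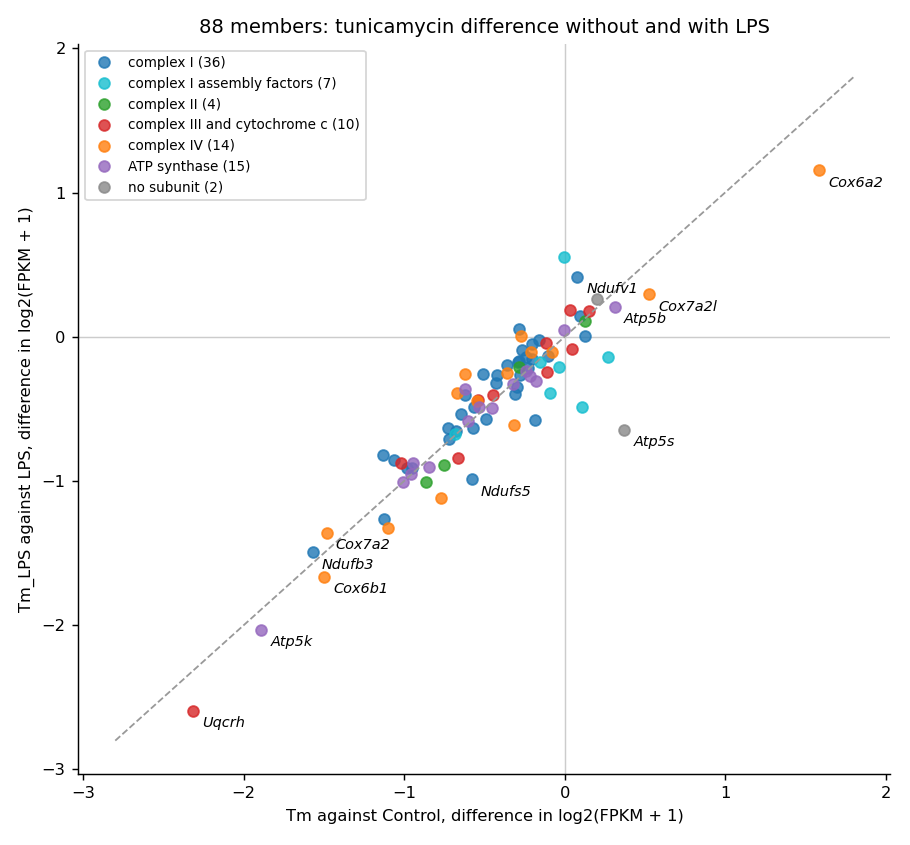
Each point is 1 of 88 members, with the Tm against Control difference on the x axis and the Tm_LPS against LPS difference on the y axis, both in log2(FPKM + 1). Points follow the dashed line of equal differences (r = 0.916), from Uqcrh at the lower left to Cox6a2 at the upper right.

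Complex I, the NADH dehydrogenase, had 22 of 36 subunits lower and 0 higher in Tm against Control, and 19 lower and 1 higher in Tm_LPS against LPS. Its summed FPKM in Tm was 70.4% of Control. Ndufb3, an accessory subunit of the membrane arm (chr1:58586384-58595964, plus strand, mm10), fell most. It measured 123.9, 154.6 and 116.2 FPKM in the Control libraries and 40.64, 39.72 and 50.3 FPKM in the Tm libraries. With LPS alone it measured 151.2, 133.3 and 131.7 FPKM, and with both agents 55.15, 45.59 and 45.45 FPKM. Every tunicamycin library was below every library without it, a 2.97-fold fall from Control (log2 SE 0.13, limma adjusted p = 1.16e-07) and a 2.82-fold fall from LPS (adjusted p = 3.13e-07).

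Other accessory subunits with falls of about that kind were Ndufa3 (2.19-fold in Tm, 1.77-fold in Tm_LPS), Ndufa5 (2.19-fold and 2.4-fold) and Ndufb10 (2.09-fold and 1.81-fold). Ndufa3 measured 378.1 to 385.6 FPKM in Control and 162.8 to 182.8 FPKM in Tm, with groups far apart. The 7 core subunits, which carry the flavin and the iron-sulfur clusters, differed by -0.30 to 0.13 on the log2 scale in Tm (median -0.20), and for 4 of them all Tm libraries lay below all Control libraries. Of these only Ndufv2, an iron-sulfur subunit of the NADH-binding module, passed as lower in Tm, with a 1.23-fold fall (adjusted p = 0.0395), and again in Tm_LPS (1.28-fold, adjusted p = 0.0202). Its Tm call was lost without Control replicate 1 (adjusted p = 0.099) or 3 (0.11) or Tm replicate 1 (0.145) or 2 (0.102), and its Tm_LPS call without LPS replicate 1 (0.0868) or 2 (0.0871) or Tm_LPS replicate 2 (0.0614). Ndufs1, the largest iron-sulfur subunit, measured 33.5, 38.42 and 42.77 FPKM in Control and 38.44, 47.61 and 39.51 FPKM in Tm, with overlapping groups (log2 difference 0.13, 95% interval -0.15 to 0.41).

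Of the 29 accessory subunits 21 fell in Tm and 18 in Tm_LPS, while 1 of 7 core subunits fell in each. This division into structural roles was made after the values were seen and is given as counts, with no test. It also runs along transcript length, since accessory transcripts are mostly shorter. With the length trend removed the Tm falls of Ndufa8, Ndufa11, Ndufb6, Ndufb9, Ndufb11 and Ndufv3 did not pass. The Ndufa1 and Ndufa2 differences became 0.288 and 0.104. Falls of Ndufa3, Ndufa5, Ndufa13, Ndufb3, Ndufb4, Ndufb7, Ndufb8, Ndufb10, Ndufc1 and Ndufs6 passed in Tm under every setting without a size threshold. The part of length was not tested further. Ndufab1, the mitochondrial acyl carrier protein that also serves fatty acid synthesis, was an accessory subunit that did not pass (-0.11, interval -0.34 to 0.12, or 0.067 with quantile normalization), and so was Ndufs4 (-0.26, interval -0.54 to 0.02). Ndufv1, the flavin-binding core subunit, passed as higher in Tm_LPS against LPS. It measured 76.81, 78.59 and 62.01 FPKM with LPS and 90.01, 93.25 and 106.4 FPKM with both agents, a 1.33-fold rise with no overlap (limma adjusted p = 0.0096). Without LPS replicate 3 its adjusted p was 0.0521.

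The complex I assembly factors, which build the enzyme but are not part of it, were low in level and mostly did not pass. Ndufaf2 fell in both comparisons, by 1.61-fold in Tm (adjusted p = 0.0158) and 1.6-fold in Tm_LPS (adjusted p = 0.02). With the length trend removed it no longer passed (adjusted p = 0.305 and 0.304). The Tm call was also lost without Control replicate 1 (0.0869) or 3 (0.0627) or Tm replicate 2 (0.0531), and the Tm_LPS call without LPS replicate 1 (0.0594) or 3 (0.0912) or Tm_LPS replicate 2 (0.0512) or 3 (0.0549). Ndufaf2 libraries measured 20.94, 11.11 and 18.24 FPKM in Control and 10.37, 9.212 and 9.602 FPKM in Tm. Ndufaf6 rose 1.47-fold in Tm_LPS against LPS (adjusted p = 0.047), with 15.91, 11.62 and 10.72 FPKM in LPS and 22.53, 16.85 and 17.93 FPKM in Tm_LPS. That rise no longer passed without LPS replicate 2 (adjusted p = 0.132), LPS replicate 3 (0.16), Tm_LPS replicate 1 (0.159), Tm_LPS replicate 3 (0.0714), Tm replicate 3 (0.0561) or Control replicate 3 (0.0563). The remaining Ndufaf1, Ndufaf3, Ndufaf4, Ndufaf5 and Ndufaf7 passed in neither comparison, with standard errors of 0.18 to 0.32 on the log2 scale.

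Complex II, the succinate dehydrogenase shared with the tricarboxylic acid cycle, had 3 of 4 subunits lower in Tm and 2 of 4 in Tm_LPS. Sdhd, a membrane anchor (chr9:50596357-50603812, minus strand), measured 172.6, 178.4 and 180.5 FPKM in Control, 93.13, 90.5 and 108.6 FPKM in Tm, 199.8, 174.0 and 162.2 FPKM in LPS, and 98.08, 77.78 and 90.16 FPKM in Tm_LPS. It fell 1.82-fold (log2 SE 0.11, adjusted p = 1.49e-05) and 2.0-fold (adjusted p = 4.11e-06), with no overlap. Sdhc, the other anchor, fell 1.69-fold and 1.85-fold. Sdha, the flavoprotein that oxidizes succinate, measured 174.5, 131.8 and 158.5 FPKM in Control and 170.4, 168.6 and 165.9 FPKM in Tm, with overlapping groups (log2 difference 0.13, interval -0.08 to 0.33). Sdhb, the iron-sulfur subunit, fell 1.22-fold in Tm (adjusted p = 0.0264), but differed by 0.046 on the log2 scale with quantile normalization, and did not pass in Tm_LPS (1.16-fold lower, adjusted p = 0.105, or 0.003 higher on the log2 scale with quantile normalization). Its Tm call was also lost without Control replicate 1 (adjusted p = 0.0538) or 2 (0.0957) or Tm replicate 2 (0.116) or 3 (0.0943).

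Complex III held the largest fall of all 88 members. Uqcrh, the acidic hinge subunit that helps cytochrome c1 meet cytochrome c (chr4:116066965-116075071, minus strand), measured 141.8, 178.9 and 190.1 FPKM in Control and 35.01, 30.06 and 34.63 FPKM in Tm. With LPS it measured 202.0, 165.7 and 164.9 FPKM, and with both agents 37.32, 21.71 and 28.42 FPKM. The groups were far apart, a 4.98-fold fall in Tm (log2 SE 0.16, limma adjusted p = 1.97e-08) and a 6.03-fold fall in Tm_LPS (adjusted p = 8.19e-09). Uqcrb, a small subunit at the quinone site, fell 2.03-fold and 1.84-fold, and Uqcr11, another small subunit, 1.59-fold and 1.79-fold. Uqcr10 fell in both comparisons (1.45-fold and 1.35-fold), but not with the length trend removed, where it differed by 0.009 and 0.068 on the log2 scale. Uqcr11 lost both calls with that trend removed (-0.13 and -0.35, adjusted p = 0.536 and 0.0889), and its Tm call without Tm replicate 2 (0.0551).

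The large subunits of the same complex did not pass. Uqcrc1, a core protein, measured 390.3, 376.8 and 346.8 FPKM in Control and 414.7, 371.0 and 355.5 FPKM in Tm. Its groups overlapped, and the interval of the log2 difference was -0.15 to 0.22. Uqcrc2, the second core protein, Uqcrfs1, the Rieske iron-sulfur protein, and Cyc1, cytochrome c1, passed in neither comparison, with differences of 0.15, 0.05 and -0.12 in Tm (Cyc1 0.083 with quantile normalization). Thus 0 of 4 core and redox subunits and 4 of 5 small subunits fell in each comparison, a division made after the values were seen. The part of transcript length in this division was not tested. Cycs, the mobile electron carrier that also triggers apoptosome formation, fell 1.36-fold in Tm (adjusted p = 0.00454) and 1.33-fold in Tm_LPS (adjusted p = 0.0102, or 0.0522 without Tm_LPS replicate 3).

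Complex IV, cytochrome c oxidase, had 8 of 14 members lower and 2 higher in Tm, and 6 lower and 0 higher in Tm_LPS. Cox6b1, which faces the intermembrane space and joins the enzyme's dimer (chr7:30616861-30626151, minus strand), measured 508.5, 688.3 and 667.1 FPKM in Control and 212.9, 223.0 and 216.2 FPKM in Tm. It measured 743.1, 641.5 and 610.8 FPKM in LPS and 227.5, 192.6 and 207.1 FPKM in Tm_LPS. No tunicamycin library reached the lowest of the others, a 2.82-fold fall in Tm (log2 SE 0.11, adjusted p = 3.97e-08) and 3.17-fold in Tm_LPS (adjusted p = 1.77e-08). Cox7a2 fell 2.79-fold and 2.57-fold, Cox7b 2.14-fold and 2.51-fold, and Ndufa4, once counted with complex I, 1.71-fold and 2.17-fold.

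Cox4i1, the largest nuclear subunit and a site of regulation by ATP, did not pass. It measured 652.7, 722.8 and 682.9 FPKM in Control and 688.6, 611.5 and 646.8 FPKM in Tm, with overlapping groups (log2 difference -0.08, interval -0.28 to 0.12, or 0.21 with the length trend removed). Cox8a did not pass either (-0.21 in Tm and -0.10 in Tm_LPS, or 0.224 and 0.307 with the length trend removed). Cox5a, Cox5b and Cox6a1 fell in Tm (1.29-fold, 1.54-fold and 1.21-fold) and did not pass in Tm_LPS (1.19-fold lower, 1.2-fold lower and 1.0-fold). Cox5a lost its Tm call without Control replicate 2 (adjusted p = 0.0617) and differed by -0.001 with the length trend removed. With that trend removed Cox5a and Cox5b were above 0 in Tm_LPS (0.095 and 0.037). Cox6a1 lost its Tm call without Control replicate 3 (adjusted p = 0.0732) or Tm replicate 2 (0.139). The Tm difference of Cox6a1 was above 0 with quantile normalization (0.09) and with the length trend removed (0.145).

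Both complex IV rises in Tm fell short of the threshold when certain libraries were left out, with differences of like direction. Cox7a2l, a relative of Cox7a2 that joins complexes III and IV into supercomplexes, measured 48.64, 65.91 and 61.19 FPKM in Control and 71.87, 90.99 and 90.99 FPKM in Tm, a 1.44-fold rise (adjusted p = 0.0475). It lost the call in 12 of the alternative fits, among them those without Control replicate 1 (adjusted p = 0.178) or 3 (0.0733), Tm replicate 2 (0.141) or 3 (0.134), LPS replicate 1 (0.058) or 3 (0.0536), or Tm_LPS replicate 3 (0.0538). The log2 difference was 0.526 with all libraries and 0.40 to 0.615 in those fits. Cox6a2, the heart and skeletal muscle form of Cox6a1, measured 1.398, 5.921 and 2.146 FPKM in Control and 3.514, 18.15 and 15.38 FPKM in Tm. Its groups overlapped, and the 3.0-fold rise (log2 SE 0.50, adjusted p = 0.021) no longer passed without Tm replicate 2 (adjusted p = 0.113), Tm replicate 3 (0.091), Control replicate 1 (0.0924) or Control replicate 3 (0.0658). Its log2 difference was 1.587 with all libraries and 1.202 to 1.463 without 1 of these.

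**Figure D3:**
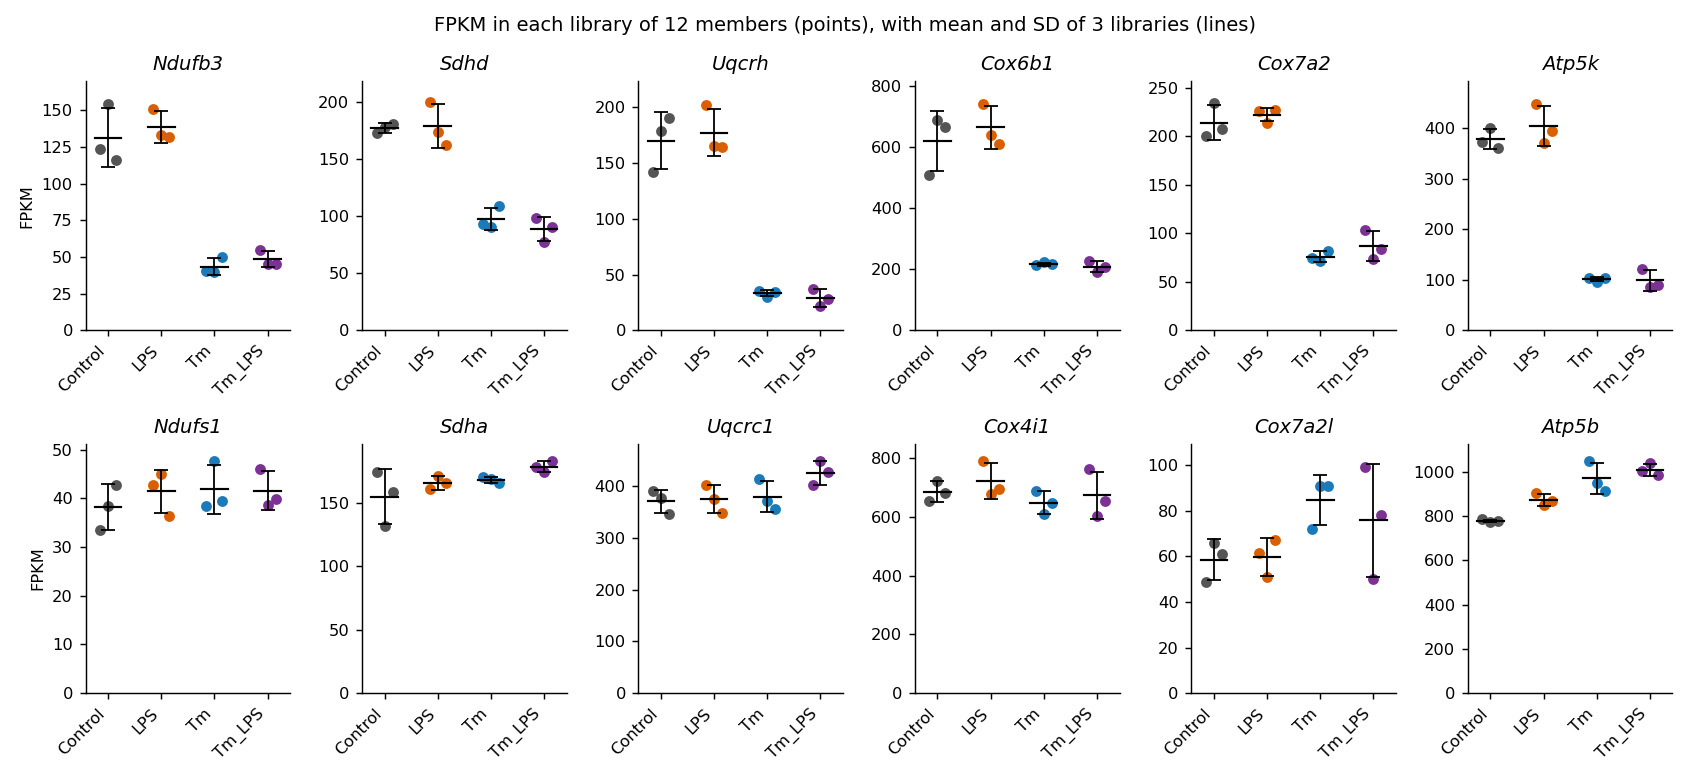
FPKM of 12 members in each library (points), with the mean and SD of 3 libraries per group (lines), on axes from 0. Upper panels show members that fell in both tunicamycin comparisons, such as Uqcrh at 141.8 to 190.1 FPKM in Control and 30.06 to 35.01 in Tm. Lower panels show Ndufs1, Sdha, Uqcrc1, Cox4i1, Cox7a2l and Atp5b, which did not fall in either.

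The ATP synthase had 10 of 15 subunits lower and 1 higher in Tm, and 11 lower and 1 higher in Tm_LPS. Atp5k, subunit e of the membrane part, which takes part in dimer formation (chr5:108433244-108434448, minus strand), measured 373.0, 399.7 and 360.2 FPKM in Control and 104.1, 96.16 and 103.0 FPKM in Tm. With LPS it measured 446.3, 370.1 and 394.4 FPKM, and with both agents 122.3, 85.67 and 89.15 FPKM. The groups did not come near each other, a 3.71-fold fall (log2 SE 0.12, adjusted p = 5.2e-09) and a 4.08-fold fall (adjusted p = 3.09e-09). Atp5j2 and Atp5l, subunits f and g beside it, fell 1.94-fold and 1.52-fold in Tm, but Atp5l differed by -0.16 with the length trend removed (adjusted p = 0.146). The peripheral stalk, which holds the catalytic head still, had 3 of 4 members lower in Tm (Atp5h, Atp5j and Atp5o) and all 4 lower in Tm_LPS, where Atp5f1 joined them. Without Tm_LPS replicate 3 the adjusted p of Atp5f1 was 0.0555. With the length trend removed Atp5h passed in neither comparison (adjusted p = 0.435 and 0.203), nor did Atp5o in Tm_LPS (0.768).

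In the F1 head Atp5b, the catalytic beta subunit (chr10:128083273-128090391, plus strand), rose. It measured 785.4, 774.3 and 777.8 FPKM in Control, 1050, 949.6 and 914.9 FPKM in Tm, 903.7, 851.2 and 869.2 FPKM in LPS, and 1003, 1040 and 984.1 FPKM in Tm_LPS. Every Tm library was above every Control library (1.24-fold, log2 SE 0.07, adjusted p = 0.0036) and every Tm_LPS library above every LPS library (1.15-fold, adjusted p = 0.048). The first of these calls held in each fit with no size threshold, and the second was lost in 16 of the alternative fits, among them those without any 1 library other than Tm replicate 1 (adjusted p from 0.0534 without Control replicate 2 to 0.143 without LPS replicate 2). Atp5a1, the alpha subunit that forms the head together with Atp5b, had an interval of -0.18 to 0.18 in Tm, and was higher by 0.342 with quantile normalization. Atp5c1, the central shaft, and Atp5d fell 1.25-fold and 1.45-fold in Tm (Atp5c1 not with quantile normalization, where it differed by 0.022), and Atp5e did not pass, although with the length trend removed it was higher by 0.32.

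The c ring, the rotor that protons turn, is encoded by Atp5g1, Atp5g2 and Atp5g3, whose mature products are the same protein. Atp5g1 fell 1.93-fold in Tm and 1.83-fold in Tm_LPS, and Atp5g3 fell 2.01-fold and 2.0-fold, while Atp5g2 did not pass (1.16-fold and 1.21-fold lower, or 0.187 and 0.113 higher on the log2 scale with the length trend removed). The log2 ratio of Atp5g3 to Atp5g2 was 0.61 ± 0.14 in Control, 0.71 ± 0.02 in LPS, -0.18 ± 0.24 in Tm and -0.02 ± 0.29 in Tm_LPS (SD, n = 3). Tunicamycin moved it by -0.76 (two-sided exact permutation test within LPS status, p = 0.005, adjusted p = 0.0075 over 6 ratios, the smallest p that 400 permutations allow). The ratio of Atp5g1 to Atp5g2 moved by -0.66 (exact p = 0.005, adjusted 0.0075), and that of Atp5g1 to Atp5g3 by 0.10 (exact p = 0.19, adjusted 0.19). These pairs were chosen with earlier results known, and each ratio restates the separate differences of its genes. Of the Atp5g2 transcript words of 31 bases, 87.7% also occur in other annotated genes, so its reads may be shared.

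Ratios among complex IV relatives were tested in the same way, on pairs chosen with earlier results known. Each ratio restates the separate differences of its genes, so its p-value is no independent support. Cox7a2l relative to Cox7a2 moved by 1.83 on the log2 scale (exact permutation p = 0.005, adjusted 0.0075), from -1.86 ± 0.14 in Control to 0.15 ± 0.20 in Tm (SD, n = 3). The ratio of Cox7a1, the muscle form, to Cox7a2 moved by 0.89 (exact p = 0.005, adjusted 0.0075), although Cox7a1 itself did not pass (-0.67 in Tm, adjusted p = 0.123). Cox6a2 relative to Cox6a1 moved by 1.5 (exact p = 0.02, adjusted 0.024), and stayed at -5.15 or lower in every group mean, so the muscle form remained a small part of the pair.

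Atp5s and Atp5sl, which share the prefix but are not synthase subunits, were low in level. Atp5s measured 2.988, 3.516 and 4.247 FPKM in Control, 3.719, 5.268 and 5.938 FPKM in Tm, 4.599, 3.438 and 6.61 FPKM in LPS, and 2.915, 2.616 and 2.511 FPKM in Tm_LPS. It did not pass in Tm and fell 1.56-fold in Tm_LPS against LPS (adjusted p = 0.0498), a call lost without any 1 library other than LPS replicate 2 or Tm replicate 1 (adjusted p from 0.0531 without Control replicate 2 to 0.211 without LPS replicate 3). Atp5sl passed in neither comparison.

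**Figure D4:**
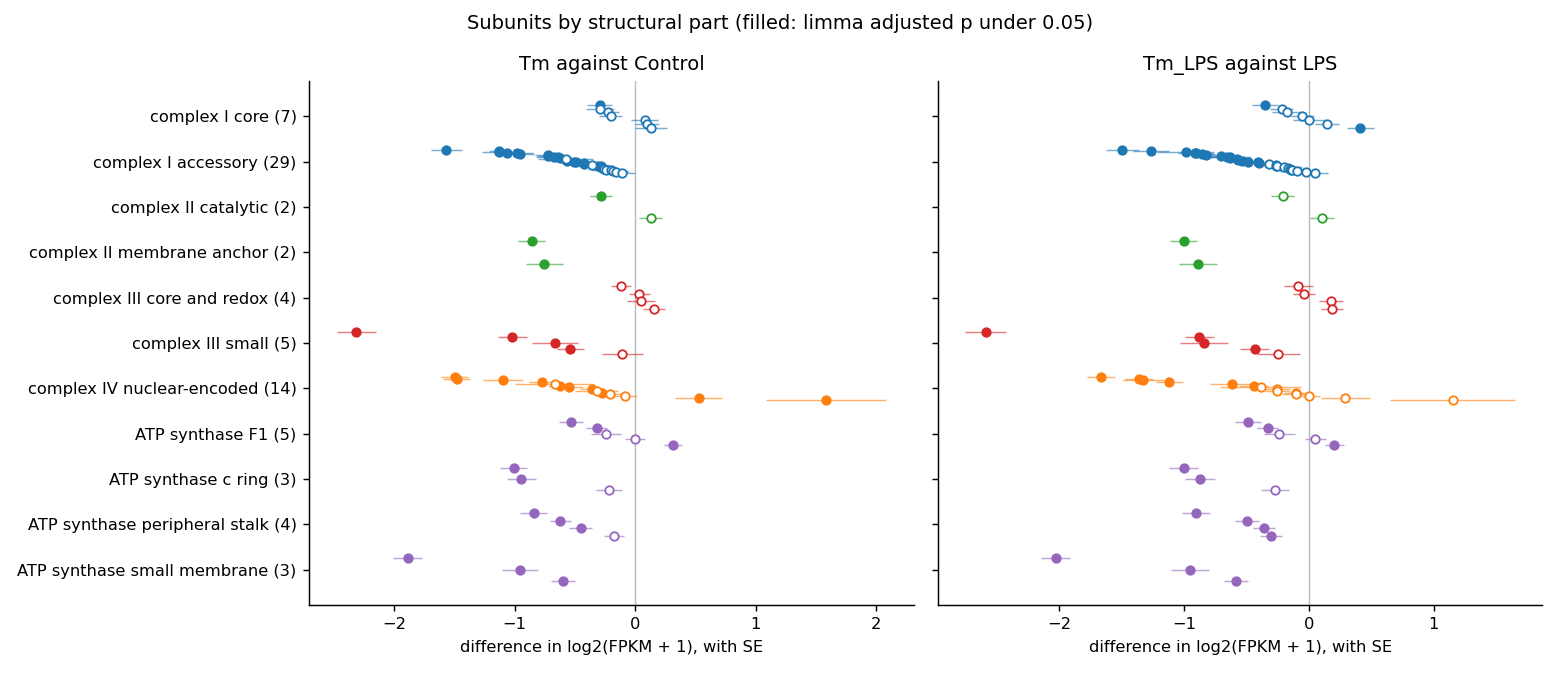
Difference in log2(FPKM + 1) with its SE for each subunit in Tm against Control (left) and Tm_LPS against LPS (right), arranged by structural part with the number of subunits (filled points passed limma at an adjusted p under 0.05). Most small, anchor and membrane subunits lie to the left, down to -2.59 for Uqcrh, but Uqcrq (-0.11 and -0.24) and Atp5g2 (-0.22 and -0.27) lie nearer 0. Core subunits of complex I run from -0.30 to 0.13 (left) and -0.35 to 0.41 (right). Core and redox subunits of complex III run from -0.12 to 0.15 and -0.08 to 0.18, and complex IV subunits from -1.50 to 1.59 and -1.66 to 1.15.

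LPS alone left the members near their Control levels. In LPS against Control 0 of 88 members passed in limma, where 10.5% of tested genes rose and 7.86% fell. At an unadjusted p under 0.05 there were 3 members, where 2991 of 10311 tested genes met it. Member differences ran from -0.57 to 0.33 with a median of 0.05. For 75 of 88 members the 95% interval lay within a 1.5-fold change in either direction, and the other 13 were mostly assembly factors and low genes. Ndufaf6 had the smallest p (1.48-fold lower, limma adjusted p = 0.0608). The summed level in LPS was 104.2% of Control.

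With tunicamycin present, most members did not pass for LPS either. In Tm_LPS against Tm 4 of 88 members passed as higher and 0 as lower, both below the 8.69% of tested genes that rose and 7.0% that fell. These were Cox5b (1.32-fold, limma adjusted p = 0.015), Cox6a1 (1.26-fold, adjusted p = 0.016), Ndufv1 (1.28-fold, adjusted p = 0.0334) and Ndufa10 (1.24-fold, adjusted p = 0.0385). Cox5b measured 266.5, 222.1 and 233.1 FPKM in Tm and 309.4, 300.9 and 338.1 FPKM in Tm_LPS, with no overlap. The count fell to 0 without limma's trend or without Tm replicate 2, and to 1 without Tm_LPS replicate 3. With quantile normalization 0 rose and 10 fell, where 7.46% of tested genes rose and 9.15% fell. The 4 members above then differed by 0.105 (Cox5b), -0.018 (Cox6a1), 0.201 (Ndufv1) and 0.095 (Ndufa10). The sign of the difference was then the opposite for 40 of 88 members in Tm_LPS against Tm and for 51 in LPS against Control.

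Members differed from each other along transcript length. Among the 52 members under 1000 bases 37 fell in Tm (median -0.56), while 36.6% of all tested genes that short fell (median -0.27). Among the 36 longer members 12 fell, or 33.3% (median -0.11), against 14.5% of longer tested genes (median 0.06). For Tm_LPS against LPS the shares were 63.5% of short members against 33.5% of short genes, and 33.3% of long members against 13.2% of long genes. Spearman's rho of length with the Tm difference was 0.476 across 88 members and 0.109 across all tested genes, a description over genes. The part of length in the member falls was not tested further than by removing the trend.

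**Figure D5:**
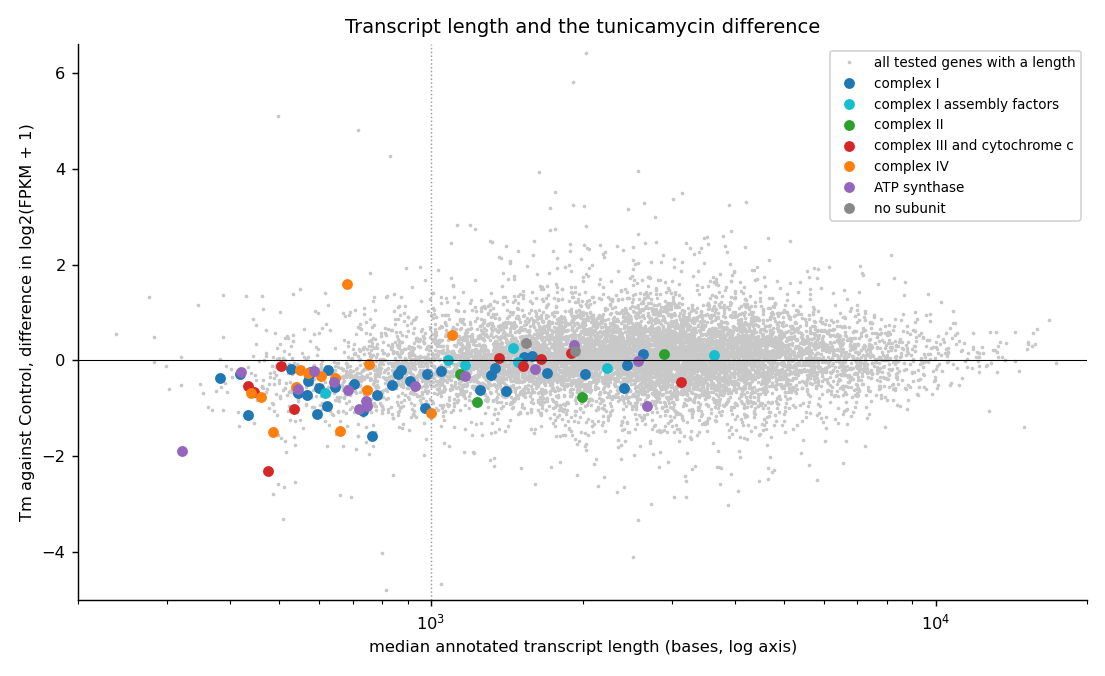
Median annotated transcript length (bases, log axis) and the Tm against Control difference in log2(FPKM + 1), for all tested genes with a length (grey) and the 88 members (coloured by complex). The dotted line marks 1000 bases, left of which 37 of 52 members passed as lower.

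Members also differ in how far their sequence occurs elsewhere, and no source used here gives the authors' handling of reads with several matches. Of 88 members 35 shared no word of 31 bases with another annotated gene, and 11 of these fell in Tm (median -0.20) and 9 in Tm_LPS. Of the 53 with shared words 38 fell in Tm (median -0.55) and 36 in Tm_LPS. Of all tested genes 16.6% fell in Tm and 15.1% in Tm_LPS. Shared words were counted for members only, so no share of other genes with or without them is at hand. Uqcrh shared 15.6% of its words, Atp5k 18.9%, Ndufb3 13.5%, Uqcrb 54.3% and Atp5l 69.6%, so their levels are less certain. Sdhd, Ndufa3, Ndufb10 and Atp5g3 shared none and fell in both comparisons. Whether shared reads had a part in the falls was not tested.

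Other genes of the pathway were counted from lists written with earlier results known. Of all tested genes 17.9% rose and 16.6% fell in Tm, and 13.8% and 15.1% in Tm_LPS, and a list with shares near these is no result about the list. Of 12 further subunits and modulators 8 fell and 0 rose in Tm, and 5 fell in Tm_LPS. These included Usmg5, a small ATP synthase subunit (483 FPKM in Control, 245 in Tm, log2 difference -0.98), Higd2a, a supercomplex factor (-0.82), and Ucp2, an uncoupling protein abundant in macrophages (-0.60). Of 45 assembly factors outside the symbol rule 10 (22.2%) fell and 4 (8.89%) rose in Tm, and 10 fell and 2 rose in Tm_LPS. Pet100, a complex IV chaperone, differed by -1.04, Cox17, a copper chaperone, by -0.83, Uqcc2, a complex III factor, by -0.82, and Coa4 by 0.79.

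Mitochondrial genes of other kinds did not share one direction. Of 15 genes of the mitochondrial unfolded protein and integrated stress responses 8 rose in Tm and 9 in Tm_LPS, and 0 fell. Examples were Pck2, a mitochondrial gluconeogenic enzyme (2.26), Aldh18a1, of proline synthesis (2.02), Mthfd2, of one-carbon metabolism (2.00), and the protease Lonp1 (1.52). Of 16 genes of mitochondrial biogenesis and mtDNA expression 4 rose and 1 fell in Tm, and 1 rose and 1 fell in Tm_LPS. Tfam, which packages and transcribes mtDNA, rose by 0.91 in Tm and 1.07 in Tm_LPS, and Nrf1, a regulator of subunit genes, by 0.58 in Tm but not in Tm_LPS (-0.05, limma adjusted p = 0.867). Esrra, which encodes ERR alpha, fell by 0.54 on the log2 scale in Tm and did not pass in Tm_LPS (-0.04, limma adjusted p = 0.9). The interaction passed for neither Nrf1 (adjusted p = 0.227) nor Esrra (0.418).

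Of 25 genes of the tricarboxylic acid cycle and pyruvate entry 4 (16.0%) rose and 6 (24.0%) fell in Tm, and 3 rose and 4 fell in Tm_LPS, near the shares of all tested genes. Pdp1, the phosphatase that activates pyruvate dehydrogenase, rose by 1.62 in Tm and 1.99 in Tm_LPS, and Dld, a subunit shared by several dehydrogenases, by 0.89 and 0.92. Of 40 genes of mitochondrial import and membrane structure 3 rose and 13 fell in Tm, and 1 rose and 12 fell in Tm_LPS. Hspa9, the matrix chaperone mortalin that drives import, rose by 1.39 and 1.28. Phb, a prohibitin of the inner membrane, fell by 0.98 on the log2 scale in Tm, and Timm17a, a channel subunit of the inner membrane translocase, fell by 0.97.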

How the data were processed

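RNA was measured by sequencing in 12 libraries. The authors deposited 1 FPKM value for each gene symbol and library. The genome build was mm10, and the tools were Cufflinks 2.2.1, SAMtools 0.1.19, TopHat2 2.0.13 and Bowtie2 2.2.3, per the submitters' processing notes. The annotation, strand setting and scaling between libraries are given by none of the sources used here. FPKM hides read depth, so precision is the spread between replicates. Median-of-ratios factors were 1.013 to 1.019. All 12 columns matched a sample. Genes with at least 1 FPKM in at least 3 libraries (10311) were fitted as log2(FPKM + 1) in limma 3.58.1 under R 4.3.3 (lmFit, then eBayes using a trend), taking 1 mean per group and 5 contrasts, and p-values were adjusted by the Benjamini-Hochberg method over all tested genes. The method was tested on simulated data. Coordinates and lengths (median over a gene's annotated transcripts) came from GENCODE M21, where all 88 members matched, 1 by a synonym. Marker lists covered macrophages, neutrophils, stromal, dendritic, T and NK, B and plasma, erythroid and mast cells. Summed dendritic cell markers ran from 0.179 to 8.78 FPKM. Members, lists and ratios were chosen with earlier results of these data known. Named genes are, per contrast and complex, up to 3 passing members with the largest change in each direction, up to 2 others with the smallest p, isoforms and catalytic subunits set by name, and up to 3 passing genes a list; Ndufa3, Ndufb10, Uqcr10, Atp5h, Atp5j, Atp5l, Atp5f1 and any others outside it were named after their values were seen. Some genes the rule would name are not reported here. Alternatives were other pseudocounts, filters, scalings and limma settings, a length correction, a replicate block, a minimum change, and leaving out libraries. Python 3.11.15, pandas 2.3.3, scipy 1.17.1 and matplotlib 3.10.9 were used.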

Additional observations from a re-analysis of the deposited data

How the results depend on the processing

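Of the 49 falls in Tm against Control 26 passed under every setting without a size threshold, Uqcrh, Atp5k, Ndufb3, Cox6b1, Cox7a2, Sdhc and Sdhd among them, and of the 45 in Tm_LPS against LPS 24 did. Of the rises only that of Atp5b in Tm did so; none of the others held throughout. With libraries left out, Tm falls numbered 40 to 51 and rises 1 to 3, Tm_LPS against LPS falls 38 to 49 and rises 0 to 4, Tm_LPS against Tm rises 0 to 5 and falls 0 to 1, and LPS falls 0 to 1. Tm rises numbered 1 without Control replicate 1 or 3 or Tm replicate 2 or 3. Tm_LPS against LPS rises numbered 0 without LPS replicate 3 and 1 without Control 3, LPS 2, Tm 3, Tm_LPS 1 or Tm_LPS 3. The LPS fall appeared without Control 1, LPS 1 or Tm 2, and the Tm_LPS against Tm fall without LPS 3 or Tm 1. Without both Control replicate 2 and Tm_LPS replicate 3, an alternative chosen after seeing the data, Tm_LPS against LPS rises numbered 0 and Tm_LPS against Tm rises 1, with 43 falls in each tunicamycin comparison.

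With no filter on low values rises numbered 1 in Tm and 1 in Tm_LPS against LPS. Without limma's trend Tm_LPS against LPS rises numbered 1, and Tm_LPS against Tm had 0 rises and 1 fall. With a minimum log2 change of 0.5, rises numbered 1 in Tm_LPS against LPS and 0 in Tm_LPS against Tm. Quantile normalization gave 3 LPS falls, 7 rises and 33 falls in Tm, and 0 rises and 10 falls in Tm_LPS against Tm. Of tested genes 9.71% fell in LPS against Control with that normalization. With the length trend removed there was 1 fall in LPS, 9 rises and 30 falls in Tm, 9 rises and 30 falls in Tm_LPS against LPS, and 1 fall in Tm_LPS against Tm; member medians were then -0.15 and -0.14, and the cause was not tested.

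Counting all 88 members, passed or not, the sign of the difference was the opposite with quantile normalization for 51 in LPS against Control, 16 in Tm against Control, 7 in Tm_LPS against LPS and 40 in Tm_LPS against Tm, and with the length trend removed for 7, 17, 19 and 6. Those that changed sign and passed on at least one side were the following, on the log2 scale. Quantile, Tm against Control: Atp5a1 0.34, Atp5c1 0.022, Cox6a1 0.09, Ndufa1 0.037 and Sdhb 0.046. Quantile, Tm_LPS against Tm: Atp5h -0.25, Cox4i1 -0.30 and Cox6a1 -0.018. Length trend removed, Tm against Control: Atp5e 0.32, Cox4i1 0.21, Cox6a1 0.14, Cox8a 0.22, Ndufa1 0.29, Ndufa2 0.10, Ndufa7 0.27, Uqcr10 0.009 and Uqcrq 0.37. Length trend removed, Tm_LPS against LPS: Atp5e 0.28, Cox8a 0.31, Ndufa1 0.25, Ndufa6 0.36 and Uqcr10 0.068. The cause was not tested.

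Replicate numbers are shared between groups, but libraries of one number did not deviate together (18 pairs, r -0.04 to 0.10, 0 over 0.1). With a replicate block 48 members fell and 2 rose in Tm, 45 fell and 2 rose in Tm_LPS against LPS, and 3 rose in Tm_LPS against Tm.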
